A study of Bos taurus with 15 samples.

Results

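A set of 10 genes that carry or tune bone morphogenetic protein (BMP) and Wnt signals was followed through engineered meniscal tissue. They were the BMP ligand BMP4, the BMP antagonist GREM1, the matrix proteinase BMP1 and the BMP response genes ID1 and ID3. The others were the secreted Wnt antagonists SFRP1, SFRP2 and FRZB, the secreted Dickkopf-family protein DKK3 and the ligand WNT5A. The members were chosen by gene name, 10 of the 38001 bovine genes in the deposited table. ID1 and ID3 are not secreted: they act inside the cell, so that the set joins 8 secreted proteins with a pair of intracellular targets.

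The study measured polyadenylated RNA at day 28 in tissue engineered from bovine meniscal fibrochondrocytes, which make the matrix of the meniscus. All groups alike spent 3 days in growth medium (10% fetal bovine serum), followed by 25 days in a chondrogenic medium of ascorbic acid (50 µg/ml), dexamethasone (1e-07 M) and TGF-β3 (10 ng/ml). The 5 groups of 3 libraries were anchored post, anchored middle, unanchored post and unanchored middle, which are the post and middle regions of tissues grown in molds with or without post anchors, and no mold, cells in collagen grown without one. No group lacked TGF-β3, and no native meniscus was among the samples. The labels do not say whether replicates came from separate tissues or whether a post and a middle library shared a tissue, so that p-values measure the spread among these libraries alone, and that spread may be technical.

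BMPs bind serine/threonine kinase receptors that phosphorylate SMAD proteins, and the ID genes are among the most direct targets of those SMADs. Extracellular antagonists such as gremlin, noggin and chordin bind the ligand and keep it from its receptor, and tolloid proteinases such as BMP1 cleave chordin as well as procollagen. Wnt ligands bind Frizzled receptors. Secreted Frizzled-related proteins bind Wnts outside the cell, and both pathways are known to bear on how cartilage cells form and keep their matrix.

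Library totals ran from 2060781 to 7415701 counts, and the no-mold libraries, at 2060781, 4466562 and 2128257, were shallower as a group than the molded ones (2986944 to 7415701). Mitochondrial transcripts made up 1.52% to 2.36% of counts in molded libraries, against 1.40% to 1.74% without a mold, and 1.52% to 1.97% at the posts, against 1.77% to 2.36% in the middles. All 11 fibrochondrocyte markers were detected in every library, and their summed level was 17700 to 26100 CPM (counts per 1000000) at the posts, against 23600 to 35800 CPM in the middles. Most of it was COL1A1 (mean 11000 CPM over all libraries) and COL1A2 (7970 CPM), while SOX9 averaged 147 CPM and ACAN 143 CPM. The 4 adipocyte markers in the table summed to 302 to 519 CPM in molded tissue, against 223 to 260 CPM without a mold. That sum was nearly all FABP4, at 219 to 517 CPM, while LEP had 1 count and CIDEC 12 over all libraries. Tendon markers summed to 64.6 to 81.4 CPM in molded tissue, against 54.0 to 72.5 CPM without a mold, and Schwann and neural markers to 339 to 455 CPM, against 416 to 445 CPM. Endothelial markers summed to at most 2.00 CPM and skeletal muscle markers to at most 2.35 CPM in any library. The adipocyte sum thus moved with the mold without overlap. Depth, mitochondrial share and the tendon sum moved with the mold but overlapped, and the no-mold Schwann range lay within the molded one. The fibrochondrocyte sum and the mitochondrial share moved with the region, also with overlap. Their part in the mold and region differences of the 10 genes was not tested. In bulk tissue, fewer cells of a type and less RNA per cell cannot be told apart.

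Of the 10 genes, 8 had enough counts to be tested, each with counts in all 15 libraries. FRZB, also known as SFRP3 and first described in cartilage, had 15 counts in all, spread over 10 libraries and never above 4 in 1 library. WNT5A, a ligand of the branch of Wnt signaling that does not act through β-catenin, had 8 counts over 7 libraries. The 3 unanchored post libraries together held 0 counts of WNT5A, which allows a level of up to 0.178 CPM (the level of 3 counts over the group, counting error only). Neither gene could be tested at this depth. SFRP2 passed the count filter mainly through the posts: the limit of 1.76 CPM was exceeded in all 6 post libraries and in 1 anchored middle library, and in none of the unanchored middle or no-mold libraries. A gene kept in this way had to differ between groups, a limit on every count below that includes SFRP2.

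**Figure D1:**
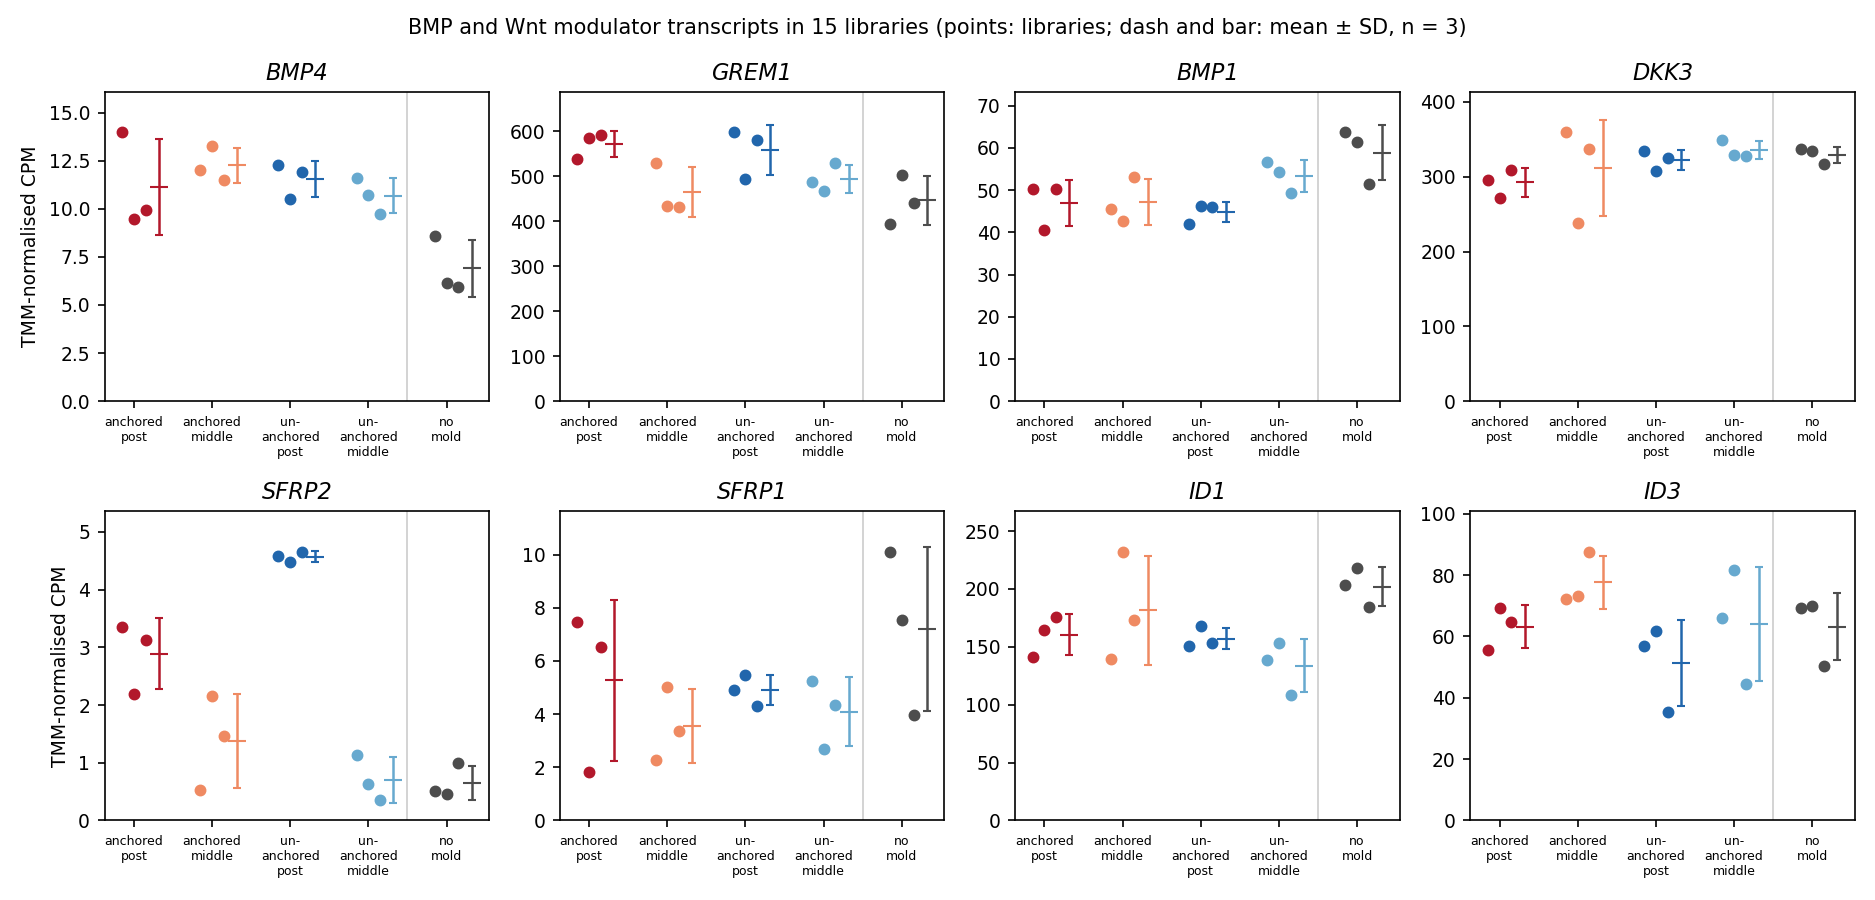
Normalised level (TMM-normalised CPM, vertical axis from 0) of the 8 tested genes in each library, by group; points are libraries, and the dash with its bar is the mean ± SD of 3 libraries. BMP4 lies lowest without a mold, SFRP2 lies highest in the post regions, and DKK3 has group means between 292 and 335 CPM.

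Levels of the 10 genes are TMM-normalised CPM, a scaling that trims genes of extreme ratio. BMP4 rose in molded tissue and BMP1 and ID1 fell there, while SFRP2 rose at the posts relative to the middles and no gene of the set passed between anchored and unanchored molds. Against no mold, the mean of the 4 molded groups differed in 3 of the 8 tested genes by edgeR's quasi-likelihood test (adjusted p under 0.05), where 16% of all 11834 tested genes passed. One of the 3 was higher, against 8.04% of all genes, and 2 were lower, against 7.91%. Of the calls over all genes, 50.4% were higher, and 66.3% when libraries were scaled by their totals instead of by TMM. The count of 3 became 1 without no mold 1 (BMP4 left), no mold 2 (GREM1, not among the 3) or no mold 3 (BMP1 left). Leaving out the 3 shallowest libraries (no mold 1 and 3 and anchored middle 2) leaves a single no-mold library. Post against middle, averaged over both mold types, passed in 1 of 8 genes, near the 8.51% of all genes. That count became 2 without anchored middle 1 or without unanchored post 2 and 3 without unanchored middle 3. A test of any difference among the 5 groups passed in 2 of 8 (ID1 and SFRP2), against 12.7% of all genes. In that test BMP4 missed the threshold (adjusted p = 0.0622), but passed without anchored post 1 (0.0381) or without the count filter (0.0298). GREM1 likewise missed it (0.0768), but passed without anchored middle 1 (0.0311) or without the count filter (0.0125). With the 5 groups ranked by mean level, the libraries of neighbouring groups overlapped for GREM1, BMP1, ID1, ID3, SFRP1 and DKK3. They did not for BMP4 between unanchored middle and no mold, nor for SFRP2 between unanchored and anchored posts and between anchored posts and anchored middles.

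**Figure D2:**
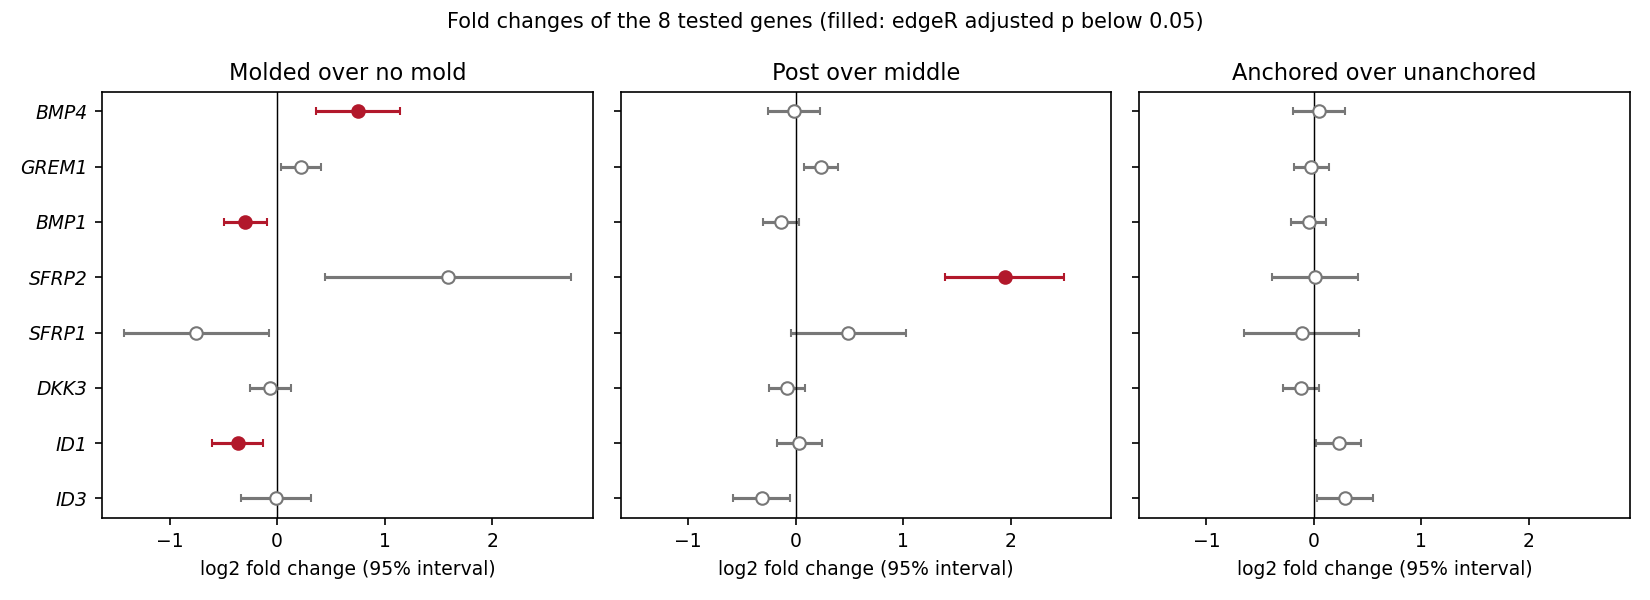
Log2 fold change (horizontal axis) of the 8 tested genes for molded over no mold, post over middle and anchored over unanchored tissue; bars are 95% intervals of the model, and filled points passed edgeR's adjusted p of 0.05. The filled points are BMP4, BMP1 and ID1 at left and SFRP2 in the centre, and there is none at right.

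BMP4, the ligand that signals through the type I receptors BMPR1A and BMPR1B, reached 14.0, 9.48 and 9.93 CPM at anchored posts and 12.0, 13.3 and 11.5 CPM in anchored middles. The unanchored posts held 12.3, 10.5 and 11.9 CPM and the unanchored middles 11.6, 10.7 and 9.75 CPM. The no-mold libraries held 8.59, 6.16 and 5.94 CPM, which rest on 17, 27 and 12 counts. All 12 molded libraries lay above all 3 without a mold, and the 4 molded groups overlapped one another. The molded libraries averaged 11.4 ± 1.39 CPM (SD, n = 12) and the no-mold libraries 6.90 ± 1.47 CPM (SD, n = 3). The level was 1.69-fold higher in molded tissue (log2 fold change 0.75, SE 0.19, edgeR adjusted p = 0.00759). The call ended without no mold 2 (adjusted p = 0.0948) or no mold 3 (0.0518), and without the 3 shallowest libraries (0.0934), where the log2 fold change was 0.87. Region made no detectable difference: post over middle was -0.01 (95% interval -0.25 to 0.23, edgeR adjusted p = 0.974).

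The 4 comparisons of a molded group with no mold share the same 3 no-mold libraries and are therefore given side by side for BMP4. It was higher by 0.71 on the log2 scale at anchored posts (edgeR adjusted p = 0.0528), by 0.84 in anchored middles (0.0111), by 0.79 at unanchored posts (0.022) and by 0.67 in unanchored middles (0.0366). The anchored post value passed without anchored middle 2 (0.0439), or under scaling by library totals (0.0359), or without the count filter (0.036). The anchored middle call ended without no mold 2 (0.0834) or 3 (0.0514). The unanchored post call ended without unanchored post 1 (0.0797) or 3 (0.063) or no mold 2 (0.131) or 3 (0.0838). The unanchored middle call ended without unanchored middle 1 (0.109) or 2 (0.0741) or no mold 2 (0.188) or 3 (0.124), and with DESeq2 (0.0755). Without the 3 shallowest libraries all 3 of these calls ended (0.0915 to 0.14).

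GREM1, which encodes gremlin, an antagonist that binds BMP2 and BMP4, was measured at 538, 586 and 591 CPM at anchored posts and at 529, 434.5 and 432 CPM in anchored middles. Unanchored posts held 597, 494 and 581 CPM, against 486.5, 467 and 529 CPM in unanchored middles, and the no-mold libraries held 395, 502 and 441 CPM. Within anchored molds every post library exceeded every middle library, while within unanchored molds the ranges overlapped. Post libraries averaged 564 ± 40.6 CPM and middle libraries 479.6 ± 43.4 CPM (SD, n = 6 each). Averaged over mold types, GREM1 was 0.24 higher at the posts on the log2 scale (95% interval 0.07 to 0.40), which missed the threshold with an edgeR adjusted p of 0.0611. It passed without anchored middle 1 (0.0239), unanchored post 2 (0.0449) or unanchored middle 3 (0.0482), with DESeq2 (0.0295) and without the count filter (0.0475). Molded over no mold was 0.22 (95% interval 0.03 to 0.40, edgeR adjusted p = 0.0996). It passed without no mold 2 (0.0495), or under scaling by library totals (0.0382), or without the count filter (0.0378). Some GREM1 values are not whole, as when a read that matches several genes is shared out. Such values held 45.6% of the GREM1 counts. Among other genes named here, they held 52.3% for ID3, 29.6% for ID1, 36.2% for SMOC2 and 33.5% for SMOC1. CHRDL1 had 17.9%, CCND1 25.7% and TCF7L2 25.4%. Over all genes they held 41.48% to 47.44% of the counts of a library. How many reads were in fact shared cannot be read from the counts.

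Against no mold, GREM1 was 0.36 higher on the log2 scale at anchored posts (edgeR adjusted p = 0.0597) and 0.32 higher at unanchored posts (0.0733), against 0.06 in anchored middles (0.779) and 0.14 in unanchored middles (0.426). None of these passed with all libraries. The anchored post value passed without anchored middle 1 (0.0436), anchored middle 2 (0.0349) or no mold 2 (0.0337), and the unanchored post value without anchored middle 2 (0.0467), unanchored post 2 (0.0426) or no mold 2 (0.0395). Both passed with DESeq2 (0.0288 and 0.046), or under scaling by library totals (0.0307 and 0.0343), or without the count filter (0.0117 and 0.0243).

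BMP1, despite its name no BMP ligand but the procollagen C-proteinase that also cleaves chordin, had its highest mean without a mold. It held 50.2, 40.65 and 50.2 CPM at anchored posts, 45.55, 42.7 and 53.2 CPM in anchored middles, 42.1, 46.1 and 46.1 CPM at unanchored posts and 56.7, 54.2 and 49.3 CPM in unanchored middles, against 63.7, 61.4 and 51.5 CPM without a mold. The 2 highest no-mold libraries exceeded every molded library, and the lowest, no mold 3, lay within the molded range. The means were 48.1 ± 5.06 CPM in molded tissue (SD, n = 12) and 58.8 ± 6.46 CPM without a mold (SD, n = 3). BMP1 fell by 18.6% in molded tissue (log2 fold change -0.30, SE 0.10, edgeR adjusted p = 0.0377). The call ended without no mold 1 (0.188), no mold 2 (0.195), anchored middle 1 (0.0529), unanchored post 1 (0.0612), unanchored middle 2 (0.0517) or unanchored middle 3 (0.053), and when libraries were scaled by their totals (0.154), the 3 shallowest were left out (0.193) or no count filter was used (0.13).

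At unanchored posts BMP1 lay below all no-mold libraries, at -0.40 on the log2 scale (edgeR adjusted p = 0.036). That call ended without any 1 of the unanchored post libraries 1 (0.148), 2 (0.0524) and 3 (0.0777) or of no mold 1 (0.148) and 2 (0.13), under scaling by library totals (0.117) and without the count filter (0.0832). The other 3 molded groups did not pass, with -0.33 at anchored posts, -0.31 in anchored middles and -0.15 in unanchored middles. The anchored post libraries (at most 50.17 CPM) also lay below all no-mold libraries (at least 51.5 CPM), while both middle groups overlapped them. Between post and middle BMP1 differed by -0.14 (95% interval -0.30 to 0.03, edgeR adjusted p = 0.316), with -0.26 in unanchored molds (0.31), where all 3 post libraries lay below all 3 middle libraries, and -0.02 in anchored molds (0.974).

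ID1, whose protein binds basic helix-loop-helix factors and keeps them off DNA, was lower in molded tissue. It held 141, 165 and 176 CPM at anchored posts, 139, 232 and 173 CPM in anchored middles, 150.3, 168 and 153 CPM at unanchored posts and 139, 153 and 109 CPM in unanchored middles, against 204, 218 and 184 CPM without a mold. Of the 12 molded libraries 11 lay below all 3 no-mold libraries, and the exception, anchored middle 2, held the highest value of all. Anchored middle 2, at 2986944 counts, was also the shallowest molded library. The other molded libraries held at least 4970209 counts, against at most 4466562 without a mold. ID1 thus lay higher in every library of at most 4466562 counts than in every deeper one, and the part of depth was not tested. It averaged 158 ± 29.8 CPM in molded libraries (SD, n = 12) and 202 ± 16.9 CPM in no-mold libraries (SD, n = 3). ID1 fell by 22.5% in molded tissue (log2 fold change -0.37, SE 0.11, edgeR adjusted p = 0.0289), which was lost without no mold 1 (0.104), 2 (0.172) or 3 (0.0545) and under scaling by library totals (0.0521).

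By group, ID1 was lower in unanchored middles than without a mold (log2 fold change -0.60, SE 0.15, edgeR adjusted p = 0.00756). That call held whichever library was left out (adjusted p at most 0.0434). The anchored posts (-0.33, adjusted p = 0.186), unanchored posts (-0.37, adjusted p = 0.114) and anchored middles (-0.17, adjusted p = 0.477) did not pass by edgeR, although all 3 libraries of each post group lay below all 3 no-mold libraries. The unanchored post value passed without anchored middle 2 (0.0408) and with only the groups compared (0.00818). The test of any difference among groups passed for ID1 by a small margin (edgeR adjusted p = 0.0466). It ended when any 1 of 10 libraries was left out: the 3 no-mold libraries, the 3 unanchored post libraries, unanchored middle 1 and 3, anchored post 1 and anchored middle 3 (adjusted p 0.0526 to 0.14). It also ended under scaling by library totals (0.077) and without the 3 shallowest libraries (0.0779). Between post and middle ID1 differed by 0.04 (95% interval -0.17 to 0.24, adjusted p = 0.87).

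ID3, a close relative of ID1 and also a BMP target, did not share that pattern. It held 55.5, 69.3 and 64.65 CPM at anchored posts, 72.2, 73.1 and 87.7 CPM in anchored middles, 57.0, 61.9 and 35.4 CPM at unanchored posts, 66.2, 81.7 and 44.6 CPM in unanchored middles and 69.2, 70.0 and 50.5 CPM without a mold. Molded over no mold was -0.01 on the log2 scale (95% interval -0.34 to 0.32, edgeR adjusted p = 0.978). Post over middle was -0.31 (95% interval -0.58 to -0.05), which missed the threshold (adjusted p = 0.132) but passed without unanchored middle 3 (0.0249) and without the count filter (0.00631). The same value was -0.30 in anchored molds (adjusted p = 0.47), where no post library reached a middle library, and -0.32 in unanchored molds (0.437), where the ranges overlapped.

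SFRP2, a secreted Frizzled-related protein that binds Wnts, was a low transcript that was higher at the posts. Anchored posts held 3.345, 2.19 and 3.135 CPM, against 0.533, 2.15 and 1.46 CPM in anchored middles. Unanchored posts held 4.585, 4.48 and 4.66 CPM, against 1.13, 0.630 and 0.348 CPM in unanchored middles, and the no-mold libraries held 0.505, 0.456 and 0.990 CPM. Every post library exceeded every middle and every no-mold library, although anchored post 2 (12 counts) lay just above anchored middle 2 (6 counts). These levels rest on few reads, 12 to 28 counts in a post library, against 2 to 10 in a middle library and 1 or 2 without a mold.

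SFRP2 averaged 3.73 ± 1.00 CPM over the post libraries and 1.04 ± 0.681 CPM over the middle libraries (SD, n = 6 each). It was 3.86-fold higher at the posts than in the middles over both mold types (log2 fold change 1.95, SE 0.27, edgeR adjusted p = 6.64e-05). SFRP2 entered the test through the posts, where it is high, so this p is not independent of the count filter. Fitted over 21304 genes without that filter, the log2 fold change was 1.94 (edgeR adjusted p = 2.55e-10). That fit uses the same counts, so its smaller p adds no independent support. In the same setting 66 genes passed for anchoring averaged over regions, where the main fit had 0. DESeq2 gave SFRP2 no adjusted p for post against middle, averaged or within either mold type. The fibrochondrocyte marker sum, lower at the posts, ran the other way, and its part in the SFRP2 difference was not tested. In unanchored molds the log2 fold change was 2.61 (SE 0.37, adjusted p = 0.00209), where 1 of the 8 genes passed against 0.448% of all genes. In anchored molds it was 1.28 (SE 0.38, adjusted p = 0.0827), where 0 of 8 passed by edgeR (2 at an unadjusted p under 0.05, and 0 by DESeq2, which gave SFRP2 no adjusted p) against 1.92% of all genes. The anchored value passed without anchored middle 2 (0.0473) and without the count filter (0.0438). The interaction, -1.33 on the log2 scale (95% interval -2.52 to -0.13), had an edgeR adjusted p of 1, so the size of the regional difference was not shown to differ between mold types.

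Relative to no mold, SFRP2 was 7.40-fold higher at unanchored posts (log2 fold change 2.89, 95% interval 1.83 to 3.94, edgeR adjusted p = 0.00106) and 4.71-fold higher at anchored posts (2.24, 95% interval 1.09 to 3.38, adjusted p = 0.0178), set against 1 or 2 counts in each no-mold library. These calls too rest on a gene that the filter kept through the posts. Without the filter, on the same counts, their edgeR adjusted p-values were 2.2e-06 and 0.00303. DESeq2 gave SFRP2 no adjusted p for either. The anchored call ended without anchored post 1 (0.052), no mold 1 (0.0664) or no mold 2 (0.125), or without the 3 shallowest libraries (0.141). The middles were not separable from no mold, with 0.95 in anchored middles (95% interval -0.43 to 2.33, adjusted p = 0.385) and 0.28 in unanchored middles (95% interval -1.21 to 1.76, adjusted p = 0.844). The mean of all molded groups was 1.59 higher (adjusted p = 0.0522), and it passed without anchored post 2 (0.0472), anchored middle 1 (0.0233) or unanchored middle 3 (0.0394), under scaling by library totals (0.0396) and without the count filter (0.0406).

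SFRP1, another Frizzled-related antagonist, passed in no comparison of the main fit. It held 7.48, 1.82 and 6.53 CPM at anchored posts, 2.26, 5.02 and 3.35 CPM in anchored middles, 4.91, 5.45 and 4.315 CPM at unanchored posts and 5.23, 2.68 and 4.35 CPM in unanchored middles, against 10.1, 7.53 and 3.96 CPM without a mold. The 2 highest libraries were no mold 1 and 2, and the third no-mold library lay inside the molded range. Molded over no mold was -0.75 on the log2 scale (95% interval -1.42 to -0.08, edgeR adjusted p = 0.12), and it passed without the count filter (-0.71, 0.0266). The group farthest from no mold was the anchored middle (-1.18, adjusted p = 0.0609), which passed without anchored post 2 (0.0174) or anchored middle 2 (0.029), without the count filter (0.00316) and with only the groups compared (0.045). The test of any difference among groups (adjusted p = 0.247) passed for SFRP1 without anchored post 2 (0.0384) or without the count filter (0.0212). Post over middle was 0.49 (95% interval -0.05 to 1.03, adjusted p = 0.26).

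DKK3, a divergent member of the Dickkopf family of secreted proteins, passed in no comparison. Its libraries ranged from 272 to 309 CPM at anchored posts, 238 to 359 CPM in anchored middles, 308 to 334 CPM at unanchored posts, 328 to 349 CPM in unanchored middles and 317 to 336.5 CPM without a mold. Molded over no mold was -0.06 on the log2 scale (95% interval -0.25 to 0.12, edgeR adjusted p = 0.71), a sign that turned under scaling by library totals (0.01). Post over middle was -0.08 (95% interval -0.24 to 0.08, adjusted p = 0.593).

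Group by group against no mold, 1 of the 8 genes passed at anchored posts (SFRP2, against 5.56% of all genes), 1 in anchored middles (BMP4, against 13.3%), 3 at unanchored posts (BMP4, BMP1 and SFRP2, against 9.02%) and 2 in unanchored middles (BMP4 and ID1, against 14.8%). Over all genes, higher calls made up 52.6%, 53.4%, 54.7% and 51.2% of the calls in those 4 comparisons, and 69.9%, 66.1%, 69.9% and 68.6% when libraries were scaled by their totals. Without anchored middle 2 the counts were 3 at anchored posts, 2 in anchored middles and 5 at unanchored posts. The count was 0 at anchored posts without anchored post 1 or no mold 1, and 2 without anchored middle 1. It was 0 in anchored middles without no mold 2 or 3, and 2 without anchored post 2. It was 1 at unanchored posts without unanchored post 1 or 3, 2 there without no mold 1, 2 or 3, and 1 in unanchored middles without unanchored middle 1 or 2 or no mold 2 or 3. For the any-difference test the count of 2 became 1 without any of the no-mold or unanchored post libraries, unanchored middle 1 or 3 or anchored middle 3, and 3 without anchored post 2 or anchored middle 1.

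No gene of the set passed between anchored and unanchored molds. By edgeR 0 of 8 genes, and 0% of all 11834, passed for anchored against unanchored at the posts (453 genes at an unadjusted p under 0.05), in the middles (366) and averaged over regions (647), and 0% for the interaction of anchoring with region (223). DESeq2 gave 0 genes in each as well, and of the 8 genes 1, 1, 2 and 1 had an unadjusted p under 0.05 in these 4 tests. At the posts SFRP2 had all 3 anchored libraries below all 3 unanchored ones (log2 fold change -0.65, 95% interval -1.24 to -0.06, edgeR adjusted p = 1). In the middles SFRP2 was 0.68 higher in anchored tissue (95% interval -0.36 to 1.71, adjusted p = 1), and averaged over regions it differed by 0.01 (95% interval -0.39 to 0.41).

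Neither ID gene passed for anchoring. For ID1 anchored over unanchored was 0.23 on the log2 scale (95% interval 0.02 to 0.44, edgeR adjusted p = 0.886), with 0.03 at the posts and 0.42 in the middles. For ID3 it was 0.29 (95% interval 0.03 to 0.55, adjusted p = 0.886), with 0.30 at the posts and 0.28 in the middles. For BMP4 (0.05, 95% interval -0.19 to 0.29), GREM1 (-0.02, -0.18 to 0.14), BMP1 (-0.05, -0.21 to 0.12) and DKK3 (-0.12, -0.28 to 0.05), the averaged anchored over unanchored log2 fold change is given with its 95% interval, and each interval includes 0. The interval of SFRP1 was wider (-0.12, 95% interval -0.65 to 0.42).

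The rest of the BMP pathway was read from lists of ligands, antagonists, receptors, SMADs, response genes and proteinases. Of 15 ligands 2 were tested, and both passed for the mold, BMP4 higher and BMP2, a ligand that strongly drives cartilage and bone formation, lower (log2 fold change -0.35, SE 0.11, edgeR adjusted p = 0.0326). BMP2 held 16.6 to 22.4 CPM in molded libraries, against 27.3, 26.0 and 20.3 CPM without a mold, and its call ended without no mold 1 (0.167) or 2 (0.233), with DESeq2 (0.0662) and under scaling by library totals (0.105). Of 10 tested receptors 2 rose in molded tissue and 0 fell, with a list median of 0.00 against 0.00 for all genes, of which 8.04% were higher. Scaled by library totals 3 receptors rose, and without the 3 shallowest libraries 0 did. The type II receptor ACVR2A was 0.89 higher (SE 0.19, adjusted p = 0.00228), with 10.4 to 16.6 CPM in molded libraries, against 9.10, 7.07 and 6.93 CPM without a mold, and held whichever library was left out, though not without the 3 shallowest (0.0625). BMPR1A was 0.44 higher (SE 0.12, adjusted p = 0.017), which was lost without no mold 3 (0.169). Of the 8 SMADs and ubiquitin ligases 0 passed for the mold by edgeR (1 at an unadjusted p under 0.05, 0 by DESeq2). Of 9 tested response genes 1 passed, ID1, described above.

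Among 13 tested extracellular BMP antagonists and modulators, 2 rose and 2 fell in molded tissue (median log2 fold change 0.15, against 0.00 for all genes), where 8.04% of all genes were higher and 7.91% lower. Scaled by library totals 4 rose and 1 fell, and without the 3 shallowest libraries 1 rose and 0 fell. CHRDL1, a chordin-like antagonist, held 14.8, 17.9 and 15.0 CPM at anchored posts, 15.45, 16.5 and 17.5 CPM in anchored middles, 16.4, 20.1 and 15.4 CPM at unanchored posts and 16.7, 14.8 and 13.6 CPM in unanchored middles, against 4.55, 5.93 and 5.45 CPM without a mold. Every molded library stood far above every no-mold library, and the log2 fold change was 1.56 (SE 0.18, edgeR adjusted p = 4.12e-06, at most 0.000175 with any library left out). Noggin (NOG) fell instead, to 0.696 to 1.96 CPM in molded libraries, against 3.03, 2.51 and 2.48 CPM without a mold (log2 fold change -1.14, edgeR adjusted p = 0.024). That call was lost without no mold 1 (0.0978), 2 (0.102) or 3 (0.0741), with DESeq2 (0.0518) and without the count filter (0.0574). NOG rests on few reads: 3 counts amount to 1.46, 0.672 and 1.41 CPM in no mold 1, 2 and 3 and to 0.405 to 1.0 CPM in molded libraries. FSTL3, which binds activins, was lower by -0.27 (adjusted p = 0.0377), and TWSG1, which binds BMPs together with chordin, was higher by 0.31 (adjusted p = 0.041). The FSTL3 call ended without any 1 of 6 libraries, the 3 no-mold ones, unanchored post 1 and 3 and unanchored middle 2 (0.0554 to 0.175), and under scaling by library totals (0.162). The TWSG1 call ended without any 1 of 8, no mold 1 and 3, anchored post 2, anchored middle 3, unanchored post 1 and 3 and unanchored middle 1 and 2 (0.0514 to 0.347).

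By region, 5 of the same 13 fell at the posts relative to the middles and 0 rose (median -0.08, against -0.01 for all genes), where 3.32% of all genes were higher and 5.19% lower. BMPER, which binds BMPs outside the cell, held 2.16, 3.46 and 1.57 CPM at anchored posts, against 6.13, 11.5 and 8.30 CPM in anchored middles, and 3.28, 6.62 and 3.80 CPM at unanchored posts, against 8.06, 10.9 and 8.18 CPM in unanchored middles. Its log2 fold change was -1.40 (SE 0.22, edgeR adjusted p = 0.000321). Within each mold type all posts lay below all middles, and across them only unanchored post 2 exceeded a middle library (anchored middle 1). SMOC2, a secreted calcium-binding matrix protein, had a log2 fold change of -1.20 (SE 0.21, adjusted p = 0.000894). Its relative SMOC1, whose frog counterpart antagonises BMP signaling, had -0.63 (SE 0.14, adjusted p = 0.00515). In SMOC2 unanchored middle 3 (61.4 CPM) lay within the range of the posts (27.4 to 84.0 CPM), and the other 5 middle libraries (112 to 232 CPM) lay above it. The calls of BMPER, SMOC2 and SMOC1 held whichever library was left out. CHRD, which encodes chordin, was lower by -0.34 (adjusted p = 0.0373), and its call ended without any 1 of 8 molded libraries, anchored post 1 and 2, anchored middle 2 and 3, unanchored post 1 and 3 and unanchored middle 1 and 2 (0.0557 to 0.113), and with DESeq2 (0.0527) or without the 3 shallowest libraries (0.0549). TWSG1 was lower by -0.28 (adjusted p = 0.0418), is named here after its values were seen, and its call ended without any 1 of 10 libraries, no mold 1, anchored post 1 and 3, anchored middle 1 and 3, unanchored post 2 and 3 and unanchored middle 1, 2 and 3 (0.055 to 0.122) and under DESeq2's size factors (0.0531). GREM1, which is on the same list, had 0.24, as given above.

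**Figure D3:**
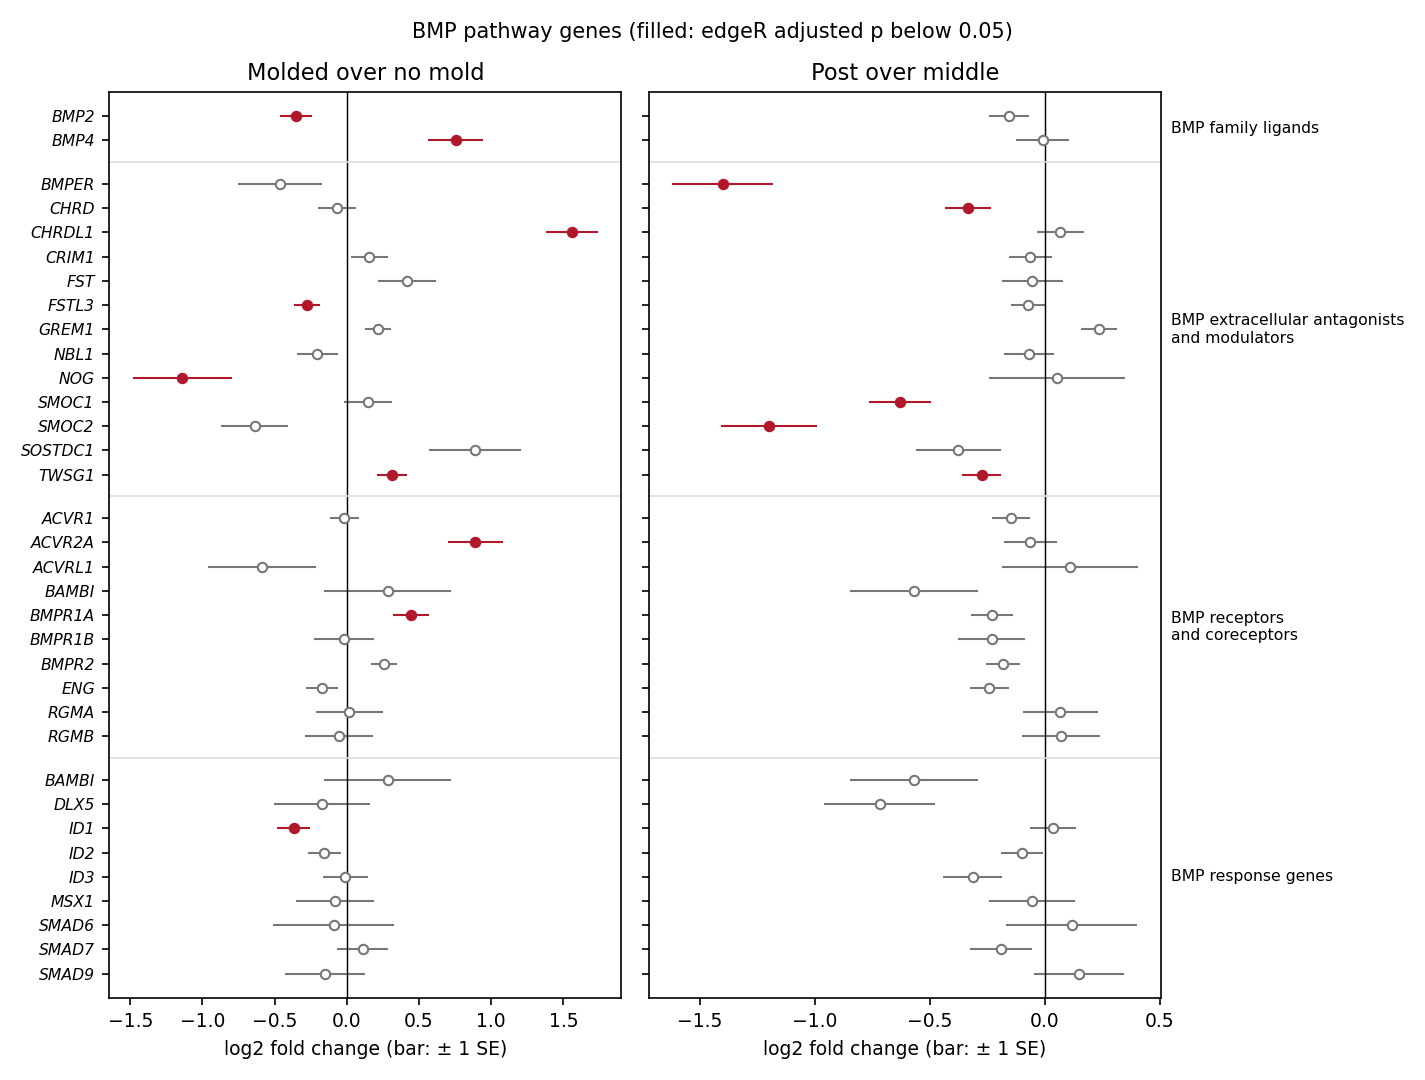
Log2 fold change ± 1 SE (horizontal axis) of tested BMP ligands, extracellular antagonists, receptors and response genes, for molded over no mold at left and post over middle at right; filled points passed edgeR's adjusted p of 0.05. CHRDL1 at 1.56 and NOG at -1.14 lie farthest out at left, and BMPER at -1.40 and SMOC2 at -1.20 at right. NOG rests on few reads.

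Other BMP-side calls by region were few. SMAD1, a SMAD that BMP receptors phosphorylate, was lower at the posts by -0.33 (SE 0.09, edgeR adjusted p = 0.0245), and the call ended without anchored post 2 (0.0514) or 3 (0.0518), anchored middle 3 (0.08), unanchored post 3 (0.0717) or unanchored middle 1 (0.0556) or 2 (0.0532). By edgeR 0 of the 2 ligands, 0 of the 10 receptors and 0 of the 9 response genes tested passed between post and middle (0, 3 and 2 at an unadjusted p under 0.05, and 0 each by DESeq2), with list medians of -0.08, -0.16 and -0.10. Of 4 tested procollagen and chordin proteinases and enhancers, BMP1 and PCOLCE2, an enhancer of procollagen C-proteinases, were lower in molded tissue. PCOLCE2 was lower by -0.27 (adjusted p = 0.0343), a call that ended without any 1 of 7 libraries, no mold 1 and 3, anchored post 1, anchored middle 3, unanchored post 1 and unanchored middle 1 and 2 (0.0516 to 0.36), and under scaling by library totals (0.106). ADAMTS2, the procollagen N-proteinase, fell at the posts, with 68.2 to 91.6 CPM in post libraries, against 92.9 to 112.7 CPM in middle libraries (log2 fold change -0.46, SE 0.08, adjusted p = 0.00102, at most 0.00589 with any library left out).

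On the Wnt side, ligands were sparse: 4 of 19 had enough counts (WNT2B, WNT5B, WNT9A and WNT10B), and 0 passed for mold or for region by edgeR (1 in each at an unadjusted p under 0.05, 0 by DESeq2), while 1 rose in molded tissue when libraries were scaled by their totals. Of 14 tested receptors, coreceptors and R-spondins, 0 passed in either comparison by edgeR (1 for the mold and 5 for region at an unadjusted p under 0.05, 0 by DESeq2). Of 7 tested secreted inhibitors and relatives of them, 2 rose and 0 fell at the posts. They were SFRP2, which the filter kept through the posts, and DKK1, which blocks the LRP5 and LRP6 coreceptors. Over all genes 3.32% were higher and 5.19% lower, and by DESeq2, which gave SFRP2 no adjusted p, 1 of the 7 passed. DKK1 held 66.5, 72.4 and 73.0 CPM at anchored posts, against 64.1, 48.4 and 55.5 CPM in anchored middles, and 72.2, 75.3 and 72.7 CPM at unanchored posts, against 60.1, 52.75 and 53.1 CPM in unanchored middles. Every post library exceeded every middle library (log2 fold change 0.36, SE 0.07, edgeR adjusted p = 0.00282, at most 0.0144 with any library left out). The median of the 7 was -0.02, against -0.01 for all genes. With the mold, 0 rose and 1 fell, DKKL1, a Dickkopf-related secreted protein (-0.46, SE 0.14, adjusted p = 0.0295), which was lost without no mold 1 (0.0919), 2 (0.134) or 3 (0.0915). Scaled by library totals 2 rose and 1 fell, and over all genes 8.04% were higher and 7.91% lower.

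**Figure D4:**
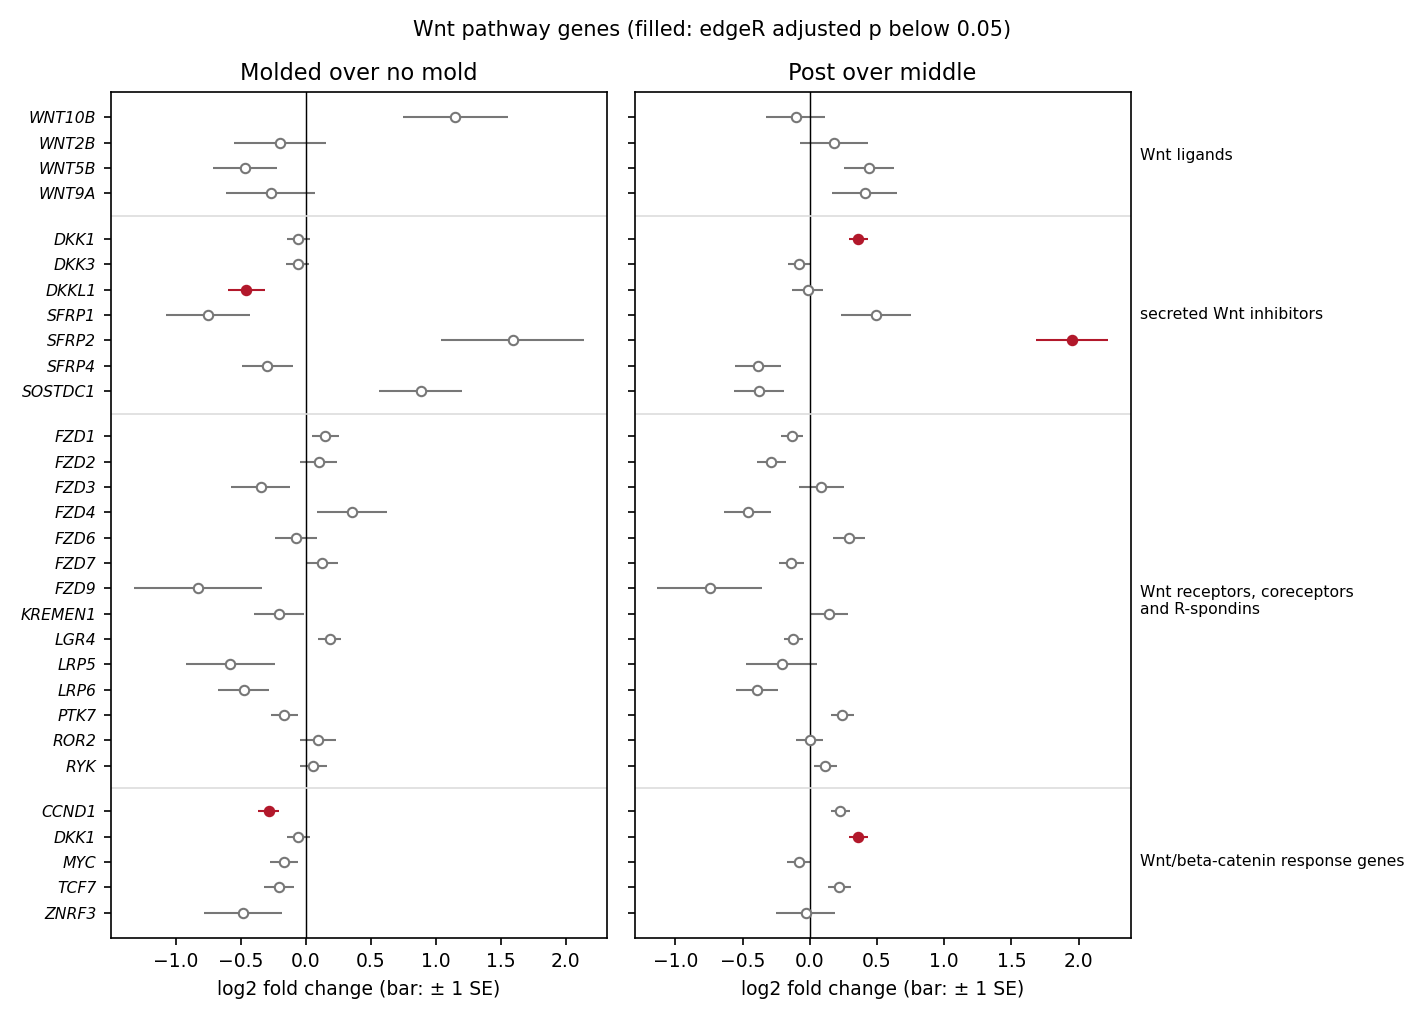
Log2 fold change ± 1 SE (horizontal axis) of tested Wnt ligands, secreted inhibitors and their relatives, receptors and β-catenin response genes, for molded over no mold at left and post over middle at right. Filled points passed edgeR's adjusted p of 0.05. SFRP2 at 1.95 and DKK1 at 0.36, which is on 2 of the lists, are the filled points at right, and DKKL1 at -0.46 and CCND1 at -0.28 those at left.

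Without the 3 shallowest libraries the mold calls of BMP2, BMPR1A, NOG, FSTL3, TWSG1, PCOLCE2, DKKL1, CCND1, APC and TCF7L2 all ended (adjusted p 0.0731 to 0.911). The log2 fold changes then were -0.42 for BMP2, -1.13 for NOG, -0.29 for FSTL3 and -0.53 for DKKL1, each about as large as with all libraries or larger. They were smaller for APC (0.05), TWSG1 (0.08), BMPR1A (0.27), PCOLCE2 (-0.14), CCND1 (-0.22) and TCF7L2 (-0.16). Without the count filter the mold calls of BMP2 (0.164), FSTL3 (0.159), PCOLCE2 (0.105) and TCF7L2 (0.13) ended, as did the region call of WLS (0.0854).

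Inside the cell, 15 genes of Wnt signal relay and secretion were tested. APC, a scaffold of the complex that degrades β-catenin, was lower at the posts by -0.36 (SE 0.09, edgeR adjusted p = 0.0139, at most 0.0421 with any library left out). It was also higher in molded tissue by 0.37 (adjusted p = 0.0303), which was lost without no mold 1 (0.156) or 3 (0.244). WLS, which carries Wnts to the cell surface, was higher at the posts by 0.25 (adjusted p = 0.0349), a call that ended without any 1 of 9 molded libraries, anchored post 1 and 3, anchored middle 2 and 3, unanchored post 2 and 3 and unanchored middle 1, 2 and 3 (0.051 to 0.0878), and under scaling by library totals (0.0658). TCF7L2, a DNA-binding partner of β-catenin, was lower in molded tissue by -0.27 (adjusted p = 0.0481), a call that ended without any 1 of 10 libraries, the 3 no-mold and 3 unanchored middle ones, anchored post 2, anchored middle 1 and unanchored post 1 and 3 (0.0514 to 0.348), and under scaling by library totals (0.172). Of 5 tested β-catenin response genes, CCND1, the G1 cyclin, was lower in molded tissue by -0.28 (SE 0.08, adjusted p = 0.0159). That call was lost without no mold 1 (0.131) or 3 (0.0528), or under scaling by library totals (0.0955), or without the count filter (0.0623). At the posts DKK1, itself a β-catenin target, was the 1 of these 5 that rose by edgeR, against 3.32% of all genes. With DESeq2's size factors 2 rose, and 2 passed by DESeq2's test.

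The genes whose profiles lay closest to ID1 and SFRP2, the members that passed the test of any difference, were found by the root-mean-square difference in centred log2 CPM over the 15 libraries. For ID1 these were MLST8, a subunit of the mTOR complexes, at 0.14, the membrane protein ITM2C at 0.15 and DKKL1 at 0.15 among 7207 candidates, where ID1's own spread was 0.27. MLST8 averaged 12.8 ± 0.708 CPM at anchored posts, 12.3 ± 3.26 in anchored middles, 11.1 ± 1.59 at unanchored posts and 10.0 ± 1.03 in unanchored middles, against 14.9 ± 0.695 without a mold (SD, n = 3 each). For SFRP2 the nearest genes were BASP1 at 0.71, SYTL2 at 0.80 and MT-ND6 at 0.80 among 7208 candidates, where SFRP2's own spread was 0.99. BASP1, a protein of the cell cortex, averaged 14.0 ± 1.41 CPM at anchored posts, 11.8 ± 2.27 in anchored middles, 14.5 ± 5.04 at unanchored posts and 9.74 ± 1.80 in unanchored middles, against 6.06 ± 1.06 without a mold (SD, n = 3 each).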

How the data were processed

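Messenger RNA of 15 libraries was primed with oligo-dT carrying barcodes and molecular identifiers and then tagmented, per the labels' protocols, so reads fall mainly near 3′ ends and levels are not compared between genes. The submitters' processing notes name STAR 2.7, SAMtools 1.21, Subread 2.1.1 with featureCounts, and MultiQC 1.33. Build, annotation, strand setting and any collapsing by identifier were not given in the sources used here. Without collapsing, PCR copies count as separate reads, and floors cover counting error only.

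The table holds CPM that the authors deposited, equal to count over library total times 1000000, and expected counts that the authors deposited, some of them not whole (tolerance 1e-06). The 92 spike-in sequences were left out. By symbol 9 members matched exactly, while DKK3 stood as a currency amount, 1 of 47 symbols so altered, and was restored.

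Expected counts were rounded to whole numbers. The filter filterByExpr (minimum count 10, total 15) left 11834 genes, scaled by TMM (factors 0.934 to 1.05). A quasi-likelihood model of the 5 group means over all 15 libraries was fitted in edgeR 4.0.16 (R 4.3.3). Contrasts were two-sided, and p-values were adjusted over all tested genes (Benjamini-Hochberg, threshold 0.05). Same-group libraries differed by more than sampling noise (15 pairs, chi-square over its degrees of freedom 2.74 to 12.6), and none was merged.

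Named are the 10 members in every comparison, up to 4 other genes past the threshold per pathway list and comparison, and the 3 genes nearest in profile to a member that passed for any difference (mean of at least 10 CPM, prior count 2). Over all libraries, lists of other cell types gave summed levels of 6.79 to 11.6 CPM for leukocytes and 54.0 to 81.4 for tendon. Schwann and neural markers gave 339 to 455, mostly S100B (333 to 437 CPM), and mural markers 56.1 to 119, mostly CSPG4 (46.1 to 101 CPM). Osteoblast markers gave 0.470 to 1.94 and hypertrophic cartilage markers at most 0.448. Members, lists and comparisons were chosen with earlier results of these data known. Alternatives were DESeq2 (1.42.0) size factors or test, library totals, no count filter, a replicate block, only the groups compared, leaving out each library, and leaving out the 3 shallowest. The code was tested on simulated data.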

Additional observations from a re-analysis of the deposited data

How the results depend on the processing

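Without the 3 shallowest libraries, which leaves 1 no-mold library whose spread is taken from the other groups, so that its depth and its number cannot be told apart, the genes past the threshold (main count in brackets) were 335 (1888) for molded tissue, 82 (658) and 411 (1575) for anchored posts and middles, 170 (1068) and 421 (1747) for unanchored posts and middles, 558 (1508) for any difference and 148 (53) for post against middle in unanchored molds. Members past it were 1 (3), 0 (1), 0 (1), 1 (3), 1 (2) and 1 (2) in the first 6 of these. Signs turned for GREM1 in anchored middles (-0.0596) and unanchored middles (-0.0249) against no mold, for GREM1 (0.00054) and SFRP2 (-0.12) by anchoring and for BMP4 by region (0.00835). SFRP2 rests on 170 counts and DESeq2 gave it no adjusted p in 8 comparisons. These were each molded group against no mold, each comparison of post against middle, and any difference among the groups.

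Without a count filter, members past the threshold were 5 for molded tissue, 3 at anchored posts, 2 in anchored middles, 1 (main 0) for post against middle in anchored molds, 3 (main 1) averaged over molds and 6 for any difference. Genes were 21, 28 and 66 (main 0 each) for anchoring at posts, in middles and averaged, 479 and 272 for post against middle in anchored and unanchored molds and 3 (main 0) for the interaction. With library totals, members at anchored posts were 3. With only the groups compared, members were 0 at anchored posts, 2 in anchored middles and 5 at unanchored posts, and genes were 105 and 192 for post against middle in anchored and unanchored molds. With DESeq2's test 133 genes and 0 members (of 5 with an adjusted p) passed for post against middle in unanchored molds, and 1 member in unanchored middles. ID3 in molded tissue was 0.056 with library totals and 0.0354 with no filter, and DKK3 was 0.00774 with library totals. The cause of these changes was not tested. DESeq2's size factors kept every count of genes and of members within 1.5 times, while of the β-catenin response genes 2 (main 1) were then higher at the posts.

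Replicate numbers were not taken to pair the samples, since the labels do not say that they do. Deviations of same-numbered libraries correlated at -0.17 to 0.26 (30 pairs, 6 over 0.1, median 0.021). Those of different-numbered libraries correlated at -0.23 to 0.2 (60 pairs, 8 over 0.1, median -0.0081). Of 15 libraries 10 matched a library of their own number best, a hint from the data only. With the replicate block, 1 gene (main 0) passed for anchoring averaged over regions, 2 members (main 1) in anchored middles, where SFRP1 joined BMP4 (adjusted p = 0.0432), and ID3 in molded tissue was 0.0164. TCF7L2 missed the threshold (0.0501), and the block changed no other call named here.

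Leaving out 1 library at a time gave 856 to 2298 genes for molded tissue, 251 to 950 and 768 to 1862 for anchored posts and middles, 497 to 1404 and 791 to 2059 for unanchored posts and middles, 0 to 0 for anchoring at the posts, in the middles and for the interaction, 0 to 1 averaged, 62 to 283, 3 to 159 and 465 to 1151 for post against middle in anchored molds, unanchored molds and averaged, and 781 to 1857 for any difference. Members numbered 1 to 4 for molded tissue, 0 to 3, 0 to 2, 1 to 5 and 1 to 2 in those 4 groups, 0 to 1, 1 to 1 and 1 to 3 for the post comparisons and 1 to 3 for any difference. Values that changed sign, none of which passed the threshold, were ID3 in molded tissue (-0.133 to 0.0892), GREM1 in anchored middles (-0.0433 to 0.159) and SFRP2 in unanchored middles (-0.257 to 0.601) against no mold, ID1 by anchoring at the posts (-0.0382 to 0.119), BMP4 (-0.0411 to 0.0904), GREM1 (-0.0764 to 0.00222), SFRP1 (-0.244 to 0.066) and SFRP2 (-0.131 to 0.279) by anchoring, BMP1 by region in anchored molds (-0.0682 to 0.0855), and BMP4 (-0.0995 to 0.0327) and ID1 (-0.0451 to 0.137) by region.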
